A study of Mus musculus with 77 samples.

Results

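The genes followed here are 41 interferon-stimulated genes, chosen by name as genes that interferons are known to induce. They come from 55487 genes in the liver count table of diet-induced obese mice with metabolic dysfunction-associated steatohepatitis (DIO-MASH). The list was set with earlier results of these data known, so counts of members given beside shares of all genes are descriptive. Each of the 41 symbols matched 1 gene identifier of the mouse genome build GRCm38. All 41 passed the filter on low counts, which left 14904 genes to test. Their levels were compared across 77 liver RNA-seq libraries, 1 per mouse, in 10 treatment groups, with most attention to the mice that received vehicle for 8, 16 or 24 weeks.

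Interferons are secreted proteins that cells release on sensing viral or misplaced nucleic acids. Type I and type III interferons act through the kinases JAK1 and TYK2 and a complex that holds STAT2 and IRF9, which binds the interferon-stimulated response element of target promoters, whereas interferon gamma acts at gamma-activated sites. The induced genes encode proteins that attack viral RNA or virus particles, the ISG15 conjugation system, transcription factors that sustain the response, sensors of foreign RNA, and GTPases that act on membranes around intracellular microbes. In the liver, hepatocytes, macrophages and endothelial cells can all express them.

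All mice were male C57BL/6JRj mice, 5 to 6 weeks old on arrival. DIO-MASH mice ate the Gubra Amylin NASH diet (40% of energy from fat, with 22% fructose, 10% sucrose and 2% cholesterol) for 34 weeks, had a liver biopsy 4 weeks before treatment and were included by their steatosis and fibrosis scores. They then received daily subcutaneous vehicle on the same diet for 8 weeks (n = 9), 16 weeks (n = 8) or 24 weeks (n = 7), or semaglutide, which activates the receptor for the gut hormone GLP-1, at 123 µg per kg on the same diet for 8 weeks (n = 7), 16 weeks (n = 8) or 24 weeks (n = 8). Chow reversal mice were moved to chow and dosed with vehicle for 8 weeks (n = 7), 16 weeks (n = 8) or 24 weeks (n = 8), and 7 mice kept on regular chow received vehicle for 24 weeks. Because chow-fed mice were sampled at 24 weeks only, and age, time on diet and time on dosing rise together in vehicle mice, these factors cannot be told apart along the vehicle course. Each library came from a piece of the left lateral lobe, so it mixes all cell types of the liver.

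Library depth ran from 8883150 to 37631072 estimated counts, with a median of 16406937. The hepatocyte markers Alb, Apoa1, Ttr and Cps1 were present in every group, with summed levels between 39800 and 124500 CPM, which are counts scaled by library size and composition and not divided by gene length. Levels of a gene in a group are given below as the median, with the lowest and highest mouse in parentheses. Replicate 5 of the chow-fed mice stood apart, being the highest of its group for 32 of the 41 genes. The library number of vehicle 8-week replicate 7 broke the repeating order of the groups, and 3 semaglutide libraries carried numbers from another number series. Calls on single members described here that changed without vehicle 8-week replicate 7 or those 3 libraries are given with and without them.

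Promoter sequence was looked up for the genes that rose over time in vehicle mice by the test given below, since interferon-activated factors are known to bind promoter elements. It was also looked up for Stat2 and Igtp, which did not pass that test. The RefSeq table for GRCm38.p6 held the stretch from 250 bases before to 50 bases after the transcription start for 31 of the 41 genes. Each line gives a name, a position, a strand and the sequence 5′ to 3′ along the gene's strand. Capitals mark matches, on either strand, to the core of the interferon-stimulated response element, GAAA followed by any 2 bases and GAAA, or to the core of the gamma-activated site, TTCNNNGAA.
Rsad2, chr12:26456403-26456702, minus strand: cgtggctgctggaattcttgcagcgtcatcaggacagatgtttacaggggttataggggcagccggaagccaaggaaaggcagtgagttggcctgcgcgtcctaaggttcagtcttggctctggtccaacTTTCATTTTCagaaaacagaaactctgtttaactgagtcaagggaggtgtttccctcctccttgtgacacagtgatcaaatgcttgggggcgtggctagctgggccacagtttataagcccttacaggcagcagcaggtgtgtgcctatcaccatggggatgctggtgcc
Oasl1, chr5:114922990-114923289, plus strand: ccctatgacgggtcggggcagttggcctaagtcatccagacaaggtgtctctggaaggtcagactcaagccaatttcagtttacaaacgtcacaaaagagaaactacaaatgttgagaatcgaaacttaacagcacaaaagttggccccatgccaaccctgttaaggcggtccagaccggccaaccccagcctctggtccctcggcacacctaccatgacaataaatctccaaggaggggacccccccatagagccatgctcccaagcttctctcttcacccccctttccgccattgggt
Isg15, chr4:156200769-156201068, minus strand: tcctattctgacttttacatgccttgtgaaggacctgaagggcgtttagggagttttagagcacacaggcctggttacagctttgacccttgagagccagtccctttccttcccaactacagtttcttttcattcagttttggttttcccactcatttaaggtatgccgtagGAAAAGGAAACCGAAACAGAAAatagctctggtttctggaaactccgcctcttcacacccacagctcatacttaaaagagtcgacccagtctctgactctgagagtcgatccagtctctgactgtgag
Cmpk2, chr12:26468965-26469264, plus strand: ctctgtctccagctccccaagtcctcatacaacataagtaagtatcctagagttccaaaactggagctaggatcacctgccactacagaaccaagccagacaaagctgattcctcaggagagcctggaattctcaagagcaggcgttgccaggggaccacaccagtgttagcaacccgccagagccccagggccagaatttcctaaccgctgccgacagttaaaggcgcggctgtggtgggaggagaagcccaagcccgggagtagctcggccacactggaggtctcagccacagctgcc
Ifit3, chr19:34583279-34583578, plus strand: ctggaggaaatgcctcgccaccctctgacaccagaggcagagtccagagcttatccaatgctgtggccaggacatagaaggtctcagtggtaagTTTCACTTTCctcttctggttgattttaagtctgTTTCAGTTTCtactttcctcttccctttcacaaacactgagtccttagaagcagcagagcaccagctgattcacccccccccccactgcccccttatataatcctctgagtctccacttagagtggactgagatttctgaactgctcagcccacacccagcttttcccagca
Stat2, chr10:128270248-128270547, plus strand: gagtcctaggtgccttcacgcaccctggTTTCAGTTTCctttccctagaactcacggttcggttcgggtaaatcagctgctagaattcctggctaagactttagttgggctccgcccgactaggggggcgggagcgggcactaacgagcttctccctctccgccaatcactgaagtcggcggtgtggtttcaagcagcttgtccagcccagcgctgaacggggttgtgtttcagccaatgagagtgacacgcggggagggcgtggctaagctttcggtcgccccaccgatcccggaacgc
Igtp, chr11:58199306-58199605, plus strand: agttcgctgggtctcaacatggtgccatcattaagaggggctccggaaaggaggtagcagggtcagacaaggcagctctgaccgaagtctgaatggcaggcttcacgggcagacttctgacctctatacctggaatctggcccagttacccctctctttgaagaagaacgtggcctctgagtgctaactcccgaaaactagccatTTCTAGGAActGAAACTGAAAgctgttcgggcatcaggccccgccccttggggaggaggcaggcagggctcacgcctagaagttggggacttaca

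The response element core was present in 19 of the 31 member promoters (61.3%) and in 1079 of 27025 genes with a promoter in the table (3.99%). The gamma-activated core was present in 9 of the 31 (29%) and in 2582 of the 27025 (9.55%). Isg15 held 3 overlapping matches to the response element core, starting 78, 72 and 66 bases before the start site, and Ifit3 held 2 on the opposite strand, 156 and 122 bases before it. Rsad2 held 1 match on the opposite strand 120 bases before the start, Stat2 held 1 on the opposite strand 222 bases before it, and Igtp held 1 match 34 bases before the start beside a gamma-activated core 45 bases before it. Neither motif occurred in these windows of Oasl1 and Cmpk2. Mx1 was not in the table. A match to these letters is a description of the sequence and was not tested for function.

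In vehicle mice, 6 of the 41 genes were higher at 24 than at 8 weeks, and 0 were lower. They were Rsad2, Oasl1, Mx1, Ifit3 and Cmpk2, which encode antiviral effectors, and Isg15, a ubiquitin-like modifier. Over all genes tested, 0.731% were called higher in this comparison and 0.0604% lower (edgeR quasi-likelihood test, Benjamini-Hochberg adjusted p under 0.05). The log2 fold change was above 0 for 38 of the 41, with a median of 0.35 against 0.01 over all genes, and 21 of the 41 were higher at an unadjusted p under 0.05. DESeq2 called 7. Without vehicle 8-week replicate 1, 5 or 7 the count was 3, and without vehicle 24-week replicate 1 it was 2. In bulk liver, more cells that express these genes and more RNA per cell cannot be told apart, here and in every comparison that follows.

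Between neighbouring times the changes were smaller. Between 8 and 16 weeks 0 of 41 genes were called by edgeR (0.0403% of all genes were higher and 0.0% lower), although 14 were higher at an unadjusted p under 0.05, and DESeq2 also called 0. Between 16 and 24 weeks 0 were called (0.047% higher, 0.0% lower), 4 were higher at an unadjusted p under 0.05, and DESeq2 called 2. The joint test over the 3 vehicle groups called Rsad2, Oasl1 and Mx1, 3 of 41 genes, against 0.523% of all genes, and 16 passed it unadjusted. Oasl1 was the only member whose vehicle mice at 16 weeks all lay above those at 8 weeks (0.0134% of all genes were separated in this way). At 24 weeks none of the 41 was fully separated from 8 weeks (0.242% of all genes were separated and higher).

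Against chow-fed mice, the vehicle mice at 24 weeks were higher for 31 of the 41 genes and lower for 1. This is a comparison in which much of the transcriptome differed, with 25.8% of all genes higher and 22.0% lower. The median log2 fold change of the members was 1.15 and that of all genes -0.02. In 18 of the 41 every vehicle mouse lay above every chow-fed mouse, compared with 13.9% of all genes. Antiviral effectors accounted for 16 of the 31 rises, from 17 members, and the other induced genes for 6, from 7 members. Of 4 transcription factors 1, Irf7, was called higher, and of 3 RNA sensors 1, Dhx58, which is near the share of all genes. DESeq2 called 2 of the 3 RNA sensors higher, and all 3 had a log2 fold change above 0.

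The number of members lower with semaglutide than with vehicle was 0, 8 and 18 at 8, 16 and 24 weeks. At 8 weeks 1 member, Irf1, was higher and 0 were lower (2.24% and 3.51% of all genes), and scaling to library totals turned this into 0 higher and 1 lower. The count was 0 without vehicle 8-week replicate 1, 5, 7 or 8, 2 without replicate 6 and 3 without replicate 4. At 16 weeks 0 were higher and 8 lower (6.44% and 5.8%), or 5 lower without the 3 libraries of the other number series, where Rsad2, Oasl1 and Ifit2 lost their calls (log2 fold changes of -0.74, -0.67 and -0.69, adjusted p = 0.0681, 0.0827 and 0.0884), and 16 lower under scaling to library totals. At 24 weeks 0 were higher and 18 lower (10.8% and 13.6%), with a median log2 fold change of -0.33 against -0.01 over all genes. In 3 of the 18, Rsad2, Cmpk2 and Lgals3bp, every semaglutide mouse lay below every vehicle mouse, compared with 2.97% of all genes. The test of the difference between the 24-week and 8-week semaglutide effects called 2 members, Rsad2 and Oasl1, both more negative at 24 weeks (0.0604% of all genes were called in that direction and 0.0% in the other), so for the other 39 a change of the drug effect with time was not shown.

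Chow reversal lowered 24 of the 41 members already at 8 weeks. The counts against vehicle were 24 lower and 1 higher at 8 weeks (17.9% and 14.2% of all genes), 31 lower and 0 higher at 16 weeks (16.2% and 12.1%), and 29 lower and 2 higher at 24 weeks (19.1% and 17%). The median log2 fold changes were -0.51, -0.95 and -0.83. The groups did not overlap for 9 members at 8 weeks, 23 at 16 weeks and 15 at 24 weeks, all lower in the reversal mice, compared with 6.56%, 5.25% and 5.15% of all genes. The difference between the 24-week and 8-week reversal effects was called for Rsad2 and Oasl1 (0.208% of all genes were more negative at 24 weeks and 0.00671% less).

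At 24 weeks the members stood higher under semaglutide than after chow reversal, and 17 of 41 were called, all in that direction (7.77% of all genes were higher and 8.72% lower). The median log2 difference was 0.42, and Ifit3 and Rtp4 were fully separated, compared with 0.315% of all genes. Relative to chow-fed mice, 21 members were still higher under semaglutide and 0 lower (17.9% and 13.5% of all genes), with 7 fully separated (4.29% of all genes), and 2 were higher after chow reversal, Ifi44 and Ifi27l2a (5.72% of all genes were higher and 0.913% lower). Without chow replicate 5, 10 members were higher after reversal than in chow-fed mice. Within the treated mice, 0 members were called between 24 and 8 weeks of semaglutide (0.0134% of all genes higher, 0.0% lower; DESeq2 called 0, and 3 were higher and 5 lower at an unadjusted p under 0.05). Between 24 and 8 weeks of chow reversal 0 were called (0.0403% higher, 0.00671% lower), with 4 higher and 1 lower unadjusted. The comparisons with vehicle, chow or reversal mice share groups, so their counts are given side by side and were not compared by overlap.

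**Figure D1:**
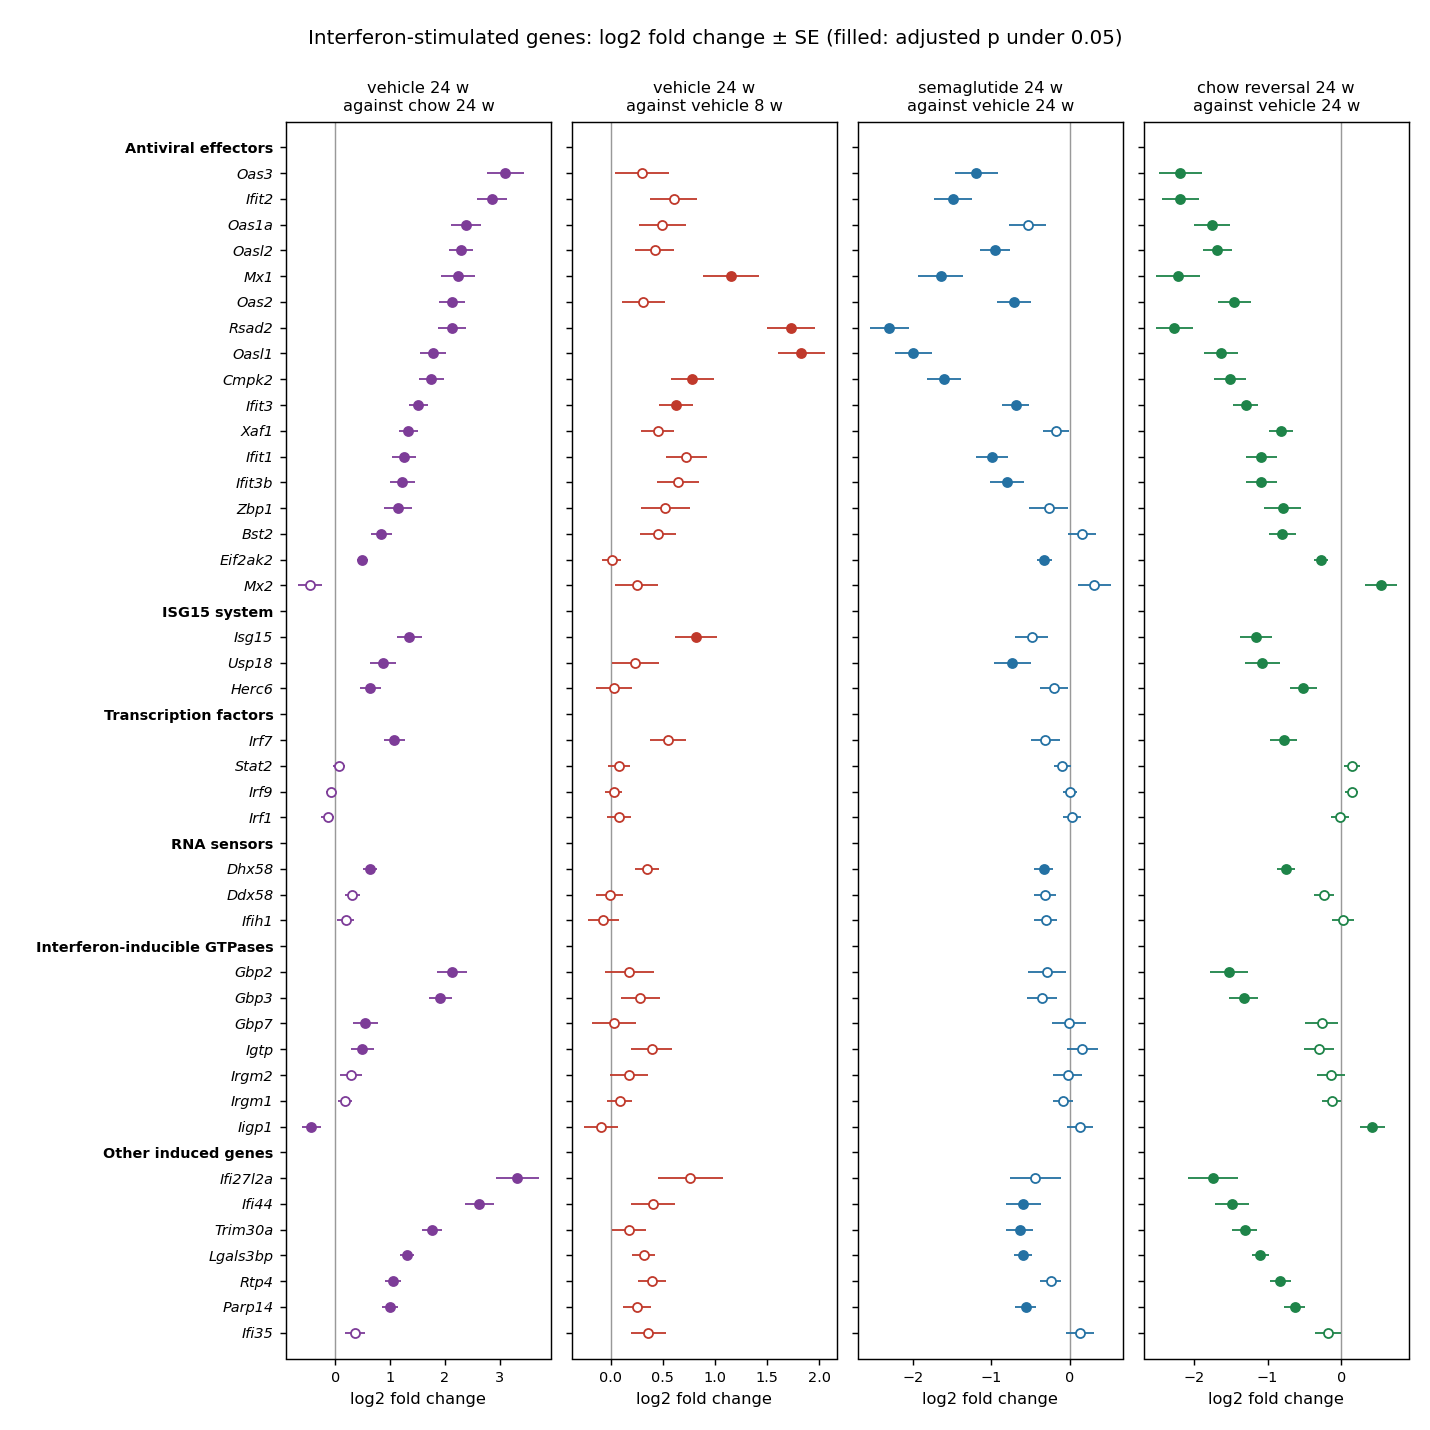
Log2 fold change of each of the 41 genes, ordered by role, in 4 comparisons: vehicle 24 weeks against chow, vehicle 24 against 8 weeks, semaglutide against vehicle at 24 weeks and chow reversal against vehicle at 24 weeks. Points are estimates of the edgeR fit, bars are ± 1 SE, and filled points have an adjusted p under 0.05. The antiviral effectors carry 16, 5, 12 and 17 of the filled points in the 4 panels, while the transcription factors carry 1, 0, 0 and 1.

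Rsad2 encodes viperin, a radical SAM enzyme that makes a chain-terminating nucleotide (ENSMUSG00000020641, chr12:26442746-26456452, minus strand). In vehicle mice it read 8.696 CPM (5.97 to 13.9) at 8 weeks, 12.6 (9.88 to 27.6) at 16 weeks and 26.97 (12.6 to 67.3) at 24 weeks. Chow-fed mice read 6.97 CPM (4.399 to 8.99). Of the 7 vehicle mice at 24 weeks, 6 lay above every vehicle mouse at 8 weeks, and all 7 lay above every chow-fed mouse. The rise from 8 to 24 weeks was 3.32-fold (log2 fold change 1.73 ± 0.23, adjusted p = 2.05e-07), where ± is the standard error (SE) here and below, and that against chow was 4.37-fold (log2 fold change 2.13 ± 0.26, adjusted p = 1.09e-10). The vehicle mice at 8 weeks overlapped the chow-fed mice.

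With semaglutide Rsad2 read 7.402 CPM (5.53 to 10.1) at 8 weeks, 6.63 (4.39 to 13.4) at 16 weeks and 5.76 (4.27 to 8.19) at 24 weeks. After chow reversal it read 5.28 CPM (3.82 to 11.9), 5.82 (4.62 to 7.95) and 5.56 (3.81 to 9.85) at the same times. The 6 treated medians lay between 5.28 and 7.40 CPM, around the chow median of 6.97 CPM. The semaglutide difference passed at 16 weeks (log2 fold change -0.92 ± 0.23, adjusted p = 0.00656), though not without the 3 libraries of the other number series (-0.74, adjusted p = 0.0681), and at 24 weeks (log2 fold change -2.31 ± 0.25, adjusted p = 1.51e-10) but not at 8 weeks (log2 fold change -0.23 ± 0.24, adjusted p = 0.669). The difference after chow reversal was -2.26 ± 0.25 at 24 weeks (log2, adjusted p = 1.58e-11). The change of the effect from 8 to 24 weeks was -2.08 ± 0.34 for semaglutide (adjusted p = 0.000322) and -1.70 ± 0.34 for chow reversal (adjusted p = 0.00759). Without vehicle 24-week replicate 1 the second of these was -1.36 with an adjusted p of 0.0793.

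Oasl1, an oligoadenylate synthetase-like protein that binds RNA without making oligoadenylates, also rose in vehicle mice (ENSMUSG00000041827, chr5:114923240-114937915, plus strand). Vehicle mice read 12.3 CPM (6.88 to 15.5) at 8 weeks, 19.4 (15.8 to 31.3) at 16 weeks and 37.5 (10.2 to 88.4) at 24 weeks, and chow-fed mice 10.97 (9.703 to 16.2). All 8 vehicle mice at 16 weeks lay above those at 8 weeks, and 6 of 7 at 24 weeks did. Replicate 5 of the vehicle mice at 24 weeks read 10.2 CPM and lay within the chow range. Its rise from 8 to 24 weeks was 3.55-fold (log2 fold change 1.83 ± 0.22, adjusted p = 1.43e-08), and the difference from chow was 1.79 ± 0.24 (adjusted p = 3.29e-09).

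Semaglutide mice read 8.86 CPM (7.03 to 10.03), 10.8 (4.64 to 20.0) and 9.95 (6.96 to 14.1) for Oasl1 at 8, 16 and 24 weeks, and chow reversal mice 11.3 (9.58 to 12.7), 10.6 (9.25 to 13.7) and 13.6 (9.91 to 17.3). No treated group exceeded a median of 13.6 CPM. At 8 weeks neither difference from vehicle passed the test (-0.41 ± 0.23 with adjusted p = 0.316 for semaglutide and -0.05 ± 0.23 with adjusted p = 0.898 for reversal). At 24 weeks both did (-1.998 ± 0.23, adjusted p = 1.7e-09, and -1.63 ± 0.23, adjusted p = 2.63e-08). The change of the semaglutide effect was -1.59 ± 0.32 (adjusted p = 0.0162), and it became -1.29 with an adjusted p of 0.212 without vehicle 24-week replicate 1 and -1.42 with an adjusted p of 0.0738 without replicate 3. With library number as a block it was -1.35 (adjusted p = 0.131). The change of the reversal effect was -1.59 ± 0.32 (adjusted p = 0.00759), or -1.28 (adjusted p = 0.0793) without replicate 1.

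Rsad2 and Oasl1 stayed past the threshold between 8 and 24 weeks in all 16 fits that left out 1 vehicle mouse, with adjusted p of at most 2.13e-05 and 1.05e-06. The other 4 risers were less firm. All 4 lost their call when the fit held only the vehicle groups compared, and Ifit3 and Cmpk2 also with library number as a block. Mx1 lost its call without vehicle 24-week replicate 1 (0.79, adjusted p = 0.243), Isg15 in 5 of the 16 fits, and Ifit3 and Cmpk2 in 9 each. All of the last 3 lost it without vehicle 8-week replicate 7, Isg15 with a log2 fold change of 0.75 (adjusted p = 0.0778), Cmpk2 with 0.76 (adjusted p = 0.0764) and Ifit3 with 0.55 (adjusted p = 0.115). Replicate 1 was the highest of the vehicle 24-week mice for 24 of the 41 genes.

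Mx1 encodes a dynamin-like GTPase that traps viral nucleocapsids (ENSMUSG00000000386, chr16:97447035-97462907, minus strand). It read 2.13 CPM (1.34 to 4.08) in vehicle mice at 8 weeks, 2.98 (2.14 to 4.72) at 16 weeks and 4.46 (2.09 to 12.8) at 24 weeks, and 0.983 (0.414 to 2.25) in chow-fed mice. Of the 24-week vehicle mice, 5 of 7 lay above all vehicle mice at 8 weeks. The rise was 1.15 ± 0.27 (adjusted p = 0.01205), and the difference from chow was 2.24 ± 0.31 (adjusted p = 6.53e-09). Laboratory C57BL/6 mice are known to carry a defective Mx1 allele, so the RNA need not yield a working protein. Semaglutide mice read 1.57 CPM (1.16 to 2.19), 1.89 (1.42 to 3.19) and 1.68 (0.262 to 2.71), and reversal mice 1.42 (0.767 to 2.10), 0.992 (0.562 to 1.86) and 1.005 (0.719 to 1.89), at 8, 16 and 24 weeks. At 24 weeks the reversal mice did not overlap the vehicle mice (log2 fold change -2.22 ± 0.30, adjusted p = 6.21e-09), whereas the semaglutide mice did (log2 fold change -1.65 ± 0.29, adjusted p = 1.58e-05).

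Cmpk2, a mitochondrial nucleotide kinase, lies head to head with Rsad2, with 12751 bases between the 2 genes (ENSMUSG00000020638, chr12:26469204-26479837, plus strand). It read 5.82 CPM (4.104 to 8.87), 7.34 (4.32 to 13.3) and 8.30 (6.39 to 22.7) in vehicle mice at 8, 16 and 24 weeks and 3.33 (1.97 to 3.77) in chow-fed mice. The highest vehicle mouse at 24 weeks was replicate 1, as for Rsad2, and all 7 lay above every chow-fed mouse (log2 fold change 1.75 ± 0.23, adjusted p = 1.37e-09). The rise from 8 weeks was 0.78 ± 0.20 (adjusted p = 0.0401) and became 0.49 (adjusted p = 0.351) without that mouse. With semaglutide it read 4.71 CPM (3.54 to 5.04), 4.25 (2.61 to 6.17) and 3.31 (1.31 to 6.34), and after reversal 3.69 (2.47 to 5.05), 3.24 (2.18 to 3.997) and 3.76 (2.196 to 5.12). All 8 mice of either treatment lay below all vehicle mice at 24 weeks (-1.61 ± 0.22, adjusted p = 8.52e-08, and -1.51 ± 0.22, adjusted p = 4.24e-08).

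**Figure D2:**
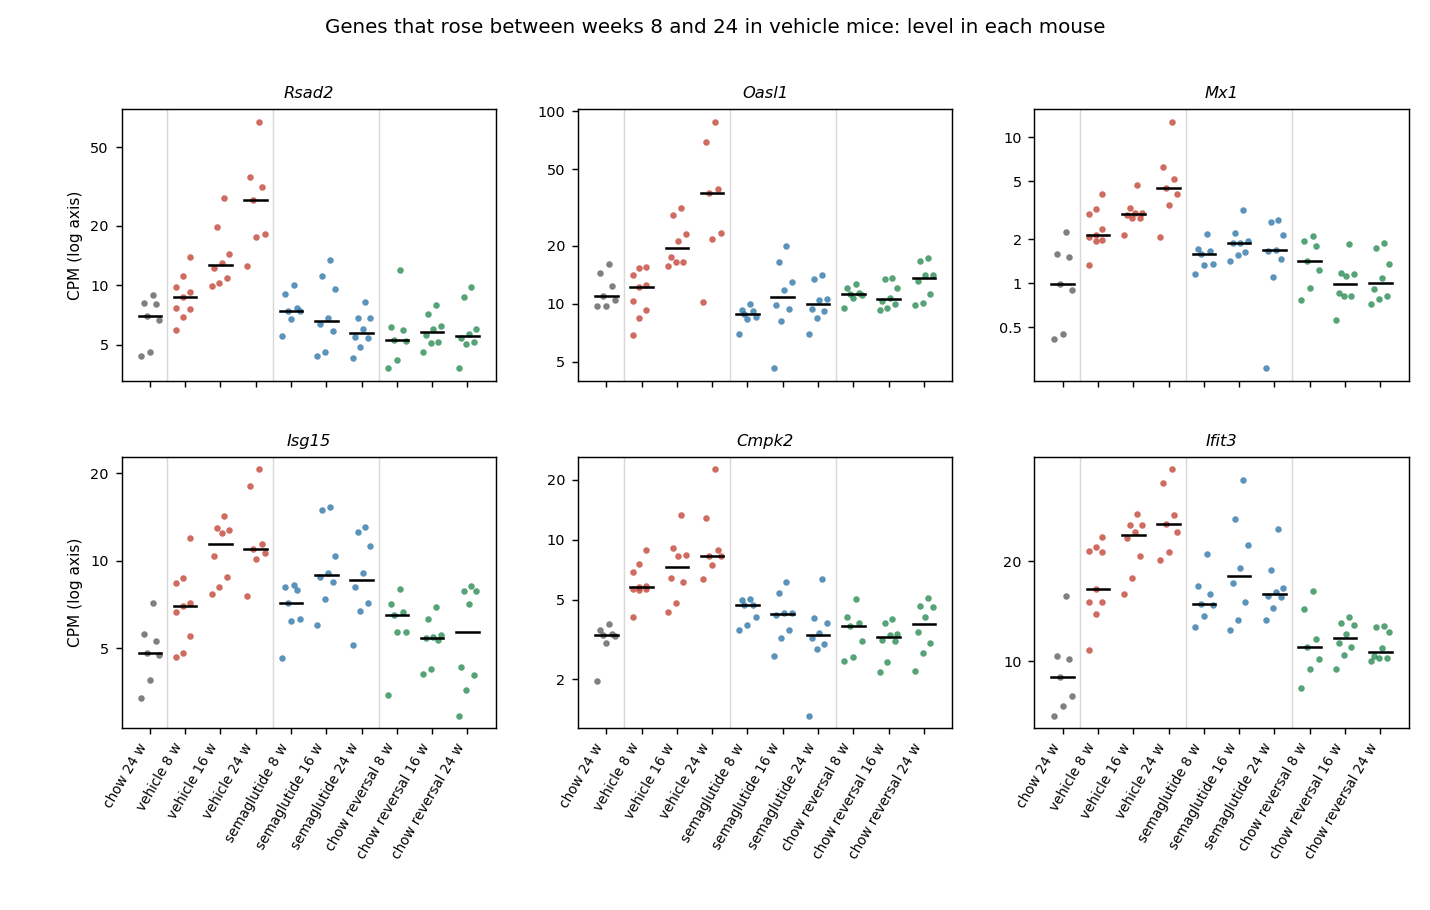
Level of the 6 genes that rose between 8 and 24 weeks in vehicle mice, in CPM on a log axis, with 1 point per mouse and a bar at the median of each of the 10 groups. Rsad2 reaches 67.3 CPM and Oasl1 88.4 CPM in vehicle 24-week replicate 1, and the treated groups of both genes lie at or below 20.0 CPM.

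The 4 Ifit genes, whose proteins bind viral RNA ends, sit side by side on chromosome 19. Ifit3 was the 1 of them called by edgeR between 8 and 24 weeks of vehicle (log2 fold change 0.62 ± 0.16, adjusted p = 0.0342). It read 16.5 CPM (10.8 to 23.7) at 8 weeks, 24.02 (15.9 to 27.9) at 16 weeks and 25.97 (20.2 to 37.99) at 24 weeks. Chow-fed mice read 8.95 CPM (6.84 to 15.7), below all vehicle mice at 24 weeks. At 24 weeks Ifit3 read 15.96 (13.3 to 24.97) with semaglutide and 10.7 (9.98 to 12.8) after chow reversal, and these 2 groups did not overlap (log2 fold change 0.60 ± 0.17, adjusted p = 0.00822). In vehicle mice Ifit1 and Ifit3b also had higher medians at 24 than at 8 weeks, without being called by edgeR. Ifit1 read 7.37 CPM (3.09 to 12.1) at 8 weeks and 10.9 (8.01 to 20.9) at 24 weeks. Ifit3b read 3.52 CPM (2.45 to 4.46) and 5.37 (3.345 to 8.79) at these times. The Ifit3 and Ifit3b sequences are close copies, so the division of reads between them is uncertain.

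Ifit2, the neighbour of Ifit3, differed clearly from chow (ENSMUSG00000045932, chr19:34550694-34576419, plus strand). Chow-fed mice read 1.29 CPM (1.05 to 2.32), and vehicle mice 8.13 (3.17 to 9.69), 7.39 (3.61 to 13.6) and 10.8 (6.56 to 17.2) at 8, 16 and 24 weeks. Every vehicle mouse at 24 weeks lay above every chow-fed mouse (log2 fold change 2.86 ± 0.27, adjusted p = 3.21e-14), while the change from 8 weeks did not pass the test (log2 fold change 0.60 ± 0.23, adjusted p = 0.259). Semaglutide mice read 4.85 CPM (3.66 to 5.62), 4.87 (3.202 to 7.88) and 3.48 (1.22 to 7.18), and reversal mice 2.41 (2.24 to 4.12), 2.99 (2.16 to 4.28) and 2.32 (1.53 to 3.77). Both were lower than vehicle at 24 weeks, with log2 fold changes of -1.49 ± 0.24 (adjusted p = 4.31e-06) and -2.18 ± 0.25 (adjusted p = 6.5e-11). Ifit1 and Ifit3b were higher than in chow-fed mice by 1.26 and 1.23 (adjusted p = 1.37e-06 and 4.28e-06), and lower with both treatments at 24 weeks.

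The 2',5'-oligoadenylate synthetases, which activate RNase L on binding double-stranded RNA, were all higher than in chow-fed mice, and 0 of 3 changed by test between 8 and 24 weeks of vehicle. Oas3 had the lowest level per kilobase of the 41 genes, both in chow-fed mice and in vehicle mice at 24 weeks, and it read 0.454 CPM (0.159 to 0.913) in chow-fed mice and 3.74 (3.02 to 6.82) in vehicle mice at 24 weeks (log2 fold change 3.10 ± 0.33, adjusted p = 1.54e-12). Oas1a and Oas2 were 2.39 ± 0.27 and 2.13 ± 0.24 higher than chow (adjusted p = 6.39e-12 and 9.97e-12). All 3 were lower after chow reversal at every time, with log2 fold changes of -1.45 to -2.18 at 24 weeks. Semaglutide at 24 weeks lowered Oas2 (-0.71 ± 0.22, adjusted p = 0.0107) and Oas3 (-1.19 ± 0.28, adjusted p = 0.000956), and the Oas1a difference did not pass (-0.54 ± 0.23, adjusted p = 0.08403).

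Oasl2, the other oligoadenylate synthetase-like gene, lies 11005 bases from Oasl1 (ENSMUSG00000029561, chr5:114896936-114912234, plus strand). Vehicle mice read 10.8 CPM (7.61 to 15.5), 14.2 (8.87 to 18.3) and 14.98 (9.12 to 19.6) at 8, 16 and 24 weeks, and chow-fed mice 3.16 (1.97 to 4.78). Its change from 8 to 24 weeks did not pass the test (log2 fold change 0.42 ± 0.18, adjusted p = 0.354). Semaglutide mice read 7.99 CPM (5.904 to 11.5), 7.26 (4.27 to 11.9) and 7.12 (3.58 to 11.6), and reversal mice 5.00 (3.499 to 6.28), 4.82 (4.06 to 8.52) and 4.58 (2.97 to 6.93). It was lower with semaglutide at 16 weeks (-0.83 ± 0.19, adjusted p = 0.00213) and 24 weeks (-0.96 ± 0.19, adjusted p = 0.000138), and every reversal mouse lay below every vehicle mouse at all 3 times. At 24 weeks it was higher with semaglutide than after reversal (0.72 ± 0.19, adjusted p = 0.00692).

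The last of the antiviral effectors were Bst2, Xaf1, Zbp1, Eif2ak2 and Mx2. Bst2, or tetherin, which holds budding virions at the cell surface, had the highest level per kilobase of the 41 genes and read 120.3 CPM (107 to 148) in chow-fed mice and 202 (141 to 317) in vehicle mice at 24 weeks (log2 fold change 0.84 ± 0.19, adjusted p = 0.000142). It was not lower with semaglutide at 24 weeks (219 (164 to 387) CPM; log2 fold change 0.16 ± 0.18, adjusted p = 0.555) but was lower after reversal (119 (92.4 to 207) CPM; log2 fold change -0.80 ± 0.18, adjusted p = 0.000282). Xaf1 and Zbp1, which promote cell death in infected cells, were likewise higher than in chow-fed mice (1.33 and 1.15) and lower after reversal, with no semaglutide difference past the threshold. Eif2ak2, the kinase PKR that halts translation, was 0.50 ± 0.10 above chow (adjusted p = 3.41e-05) and lower with both treatments at 24 weeks. Mx2 went the other way, higher after reversal at 8 weeks (log2 fold change 0.53 ± 0.21, adjusted p = 0.0398) and 24 weeks (log2 fold change 0.54 ± 0.21, adjusted p = 0.0385), and both calls were lost when libraries were scaled to their totals, the first also without vehicle 8-week replicate 7 (0.49, adjusted p = 0.0763). Over the 17 antiviral effectors, the mean log2 level relative to each gene's own average was -0.709 ± 0.301 (SD, n = 7) in chow-fed mice and 0.263 ± 0.27 (n = 9), 0.631 ± 0.232 (n = 8) and 0.8797 ± 0.379 (n = 7) in vehicle mice at 8, 16 and 24 weeks.

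Of the ISG15 system, Isg15, the ubiquitin-like protein that is attached to newly made proteins, rose with time (ENSMUSG00000035692, chr4:156199424-156200818, minus strand). Vehicle mice read 6.96 CPM (4.68 to 11.9) at 8 weeks, 11.4 (7.68 to 14.2) at 16 weeks and 10.9 (7.54 to 20.7) at 24 weeks, and chow-fed mice 4.81 (3.36 to 7.17). The groups at 8 and 24 weeks overlapped broadly, with 2 of 7 mice at 24 weeks above all those at 8 weeks (log2 fold change 0.82 ± 0.20, adjusted p = 0.0239). No vehicle mouse at 24 weeks overlapped the chow range (log2 fold change 1.35 ± 0.22, adjusted p = 5.34e-07), whereas the vehicle mice at 8 weeks did. Without vehicle 24-week replicate 1 the rise was 0.66 (adjusted p = 0.192). Semaglutide mice read 7.14 CPM (4.64 to 8.24), 8.89 (5.99 to 15.3) and 8.60 (5.13 to 13.1), and the 24-week difference did not pass (log2 fold change -0.48 ± 0.21, adjusted p = 0.0835). Reversal mice read 6.48 CPM (3.45 to 8.01), 5.44 (4.06 to 6.93) and 5.68 (2.93 to 8.18), lower than vehicle at 16 weeks (-1.01 ± 0.21, adjusted p = 9.3e-05) and 24 weeks (-1.16 ± 0.21, adjusted p = 1.08e-05).

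Usp18, which removes ISG15 and restrains interferon receptor signalling, was not called between 8 and 24 weeks of vehicle (ENSMUSG00000030107, chr6:121245906-121270917, plus strand). Vehicle mice read 9.49 CPM (6.62 to 13.2), 11.3 (8.39 to 18.2) and 9.93 (9.39 to 19.3), and the difference between 24 and 8 weeks was 0.24 ± 0.22 (adjusted p = 0.667). Chow-fed mice read 4.47 CPM (3.56 to 20.2), the top value belonging to replicate 5, so no vehicle mouse lay above the whole group (log2 fold change 0.87 ± 0.24, adjusted p = 0.00208). Semaglutide mice read 8.502 CPM (6.75 to 10.2), 9.06 (7.05 to 11.2) and 7.04 (2.796 to 13.1), and reversal mice 6.18 (4.99 to 7.53), 4.67 (4.02 to 6.67) and 5.02 (3.42 to 9.17). It was lower at 24 weeks with semaglutide (-0.73 ± 0.23, adjusted p = 0.0159, or -0.58 with adjusted p = 0.0681 without vehicle replicate 1) and with reversal (-1.07 ± 0.24, adjusted p = 0.000185).

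Herc6, the main ISG15 ligase of the mouse, was not called between 8 and 24 weeks of vehicle (ENSMUSG00000029798, chr6:57581000-57664632, plus strand). It read 11.03 CPM (8.79 to 16.6), 11.6 (6.17 to 16.4) and 12.7 (5.88 to 15.4) in vehicle mice (log2 fold change 0.03 ± 0.17, adjusted p = 0.961 between 24 and 8 weeks) and 7.799 (4.29 to 10.9) in chow-fed mice. The vehicle mice were higher than chow-fed mice with overlapping groups (log2 fold change 0.64 ± 0.19, adjusted p = 0.00333). Semaglutide mice read 11.6 CPM (9.15 to 13.7), 11.2 (5.97 to 14.2) and 9.68 (7.34 to 14.1), with no difference past the threshold (log2 fold change -0.20 ± 0.18, adjusted p = 0.426 at 24 weeks). Reversal mice read 6.77 CPM (6.05 to 8.19), 6.56 (5.61 to 8.37) and 8.10 (5.19 to 11.2), all below the vehicle range at 8 weeks (log2 fold change -0.74 ± 0.18, adjusted p = 0.0009395). At 24 weeks the reversal difference was -0.51 ± 0.18 (adjusted p = 0.0194), or -0.44 (adjusted p = 0.0588) without vehicle replicate 1.

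Of the 4 transcription factors of the response, Irf7, which amplifies type I interferon production, was called most often (ENSMUSG00000025498, chr7:141262706-141266481, minus strand). Vehicle mice read 39.4 CPM (27.7 to 52.96), 55.6 (48.6 to 66.2) and 49.1 (36.4 to 87.4) at 8, 16 and 24 weeks, and chow-fed mice 26.3 (21.1 to 35.5). All vehicle mice at 24 weeks lay above all chow-fed mice (log2 fold change 1.08 ± 0.19, adjusted p = 2.43e-06), and the change from 8 weeks did not pass (log2 fold change 0.55 ± 0.18, adjusted p = 0.162). Semaglutide mice read 39.2 CPM (34.4 to 46.3), 40.5 (29.2 to 106) and 42.5 (32.6 to 76.4), and 0 of the 3 differences passed (log2 fold change -0.31 ± 0.18, adjusted p = 0.213 at 24 weeks). Reversal mice read 30.9 CPM (28 to 43.1), 28.3 (25.4 to 38.03) and 30.2 (24.6 to 53.1), lower than vehicle at 16 weeks (log2 fold change -0.95 ± 0.18, adjusted p = 2.22e-05) and 24 weeks (log2 fold change -0.78 ± 0.18, adjusted p = 0.000407). Among the genes described in full, Phrf1 overlaps Irf7, Gm13822 Oasl1, Gm44148 Usp18, Gm19244 Herc6, Dhx58os Dhx58 and Masp1 Rtp4 on the opposite strand. The strand setting of the counting is not given in the sources used here. Gm45193 overlaps Herc6 and Gm45338 overlaps Rtp4 on the same strand, so the counts of Herc6 and Rtp4 are uncertain.

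Stat2 and Irf9, whose proteins carry type I signals to promoters, were not called by edgeR in any of the 17 comparisons, and DESeq2 called Irf9 lower after reversal at 16 weeks (adjusted p = 0.0462, against 0.0664 by edgeR). Stat2 (ENSMUSG00000040033, chr10:128270559-128292849, plus strand) read 44.6 CPM (37.64 to 60.4) in chow-fed mice, 44.6 (40.2 to 52.4), 50.6 (41.5 to 55.8) and 50.6 (37.1 to 61.4) in vehicle mice, 48.6 (37.1 to 52.7), 45.98 (41.1 to 55.01) and 46.7 (32.6 to 54.8) in semaglutide mice and 47.2 (37.7 to 51.7), 44.5 (36.97 to 53.1) and 46.3 (40.02 to 75.04) in reversal mice at 8, 16 and 24 weeks. Irf9 (ENSMUSG00000002325, chr14:55603571-55610030, plus strand) read 29.2 CPM (25.6 to 31.8), 27.4 (22.1 to 30.4), 27.6 (23.3 to 35.4), 27.5 (23.2 to 32.7), 31.2 (27.2 to 33.5), 28.5 (23.5 to 34.95), 27.4 (24.9 to 31.2), 26.4 (23.6 to 28.3), 25.5 (20.7 to 28.5) and 27.9 (25.5 to 39.6) in the same order. All 10 groups of either gene overlapped. The log2 change between vehicle 24 and 8 weeks was 0.08 ± 0.11 for Stat2 and 0.03 ± 0.08 for Irf9. Rnf31 overlaps Irf9 on the same strand, so the counts of Irf9 are uncertain. Irf1, which interferon gamma induces, was higher with semaglutide at 8 weeks, 45.1 (30.5 to 55.8) CPM against 35.8 (31.6 to 39.95) CPM in vehicle mice (log2 fold change 0.37 ± 0.11, adjusted p = 0.0393), and was not called in the other 16 comparisons. That call was lost without vehicle 8-week replicate 7 (0.35, adjusted p = 0.0729).

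Among the sensors of cytosolic RNA, Dhx58 (LGP2) was called most often (ENSMUSG00000017830, chr11:100694884-100704271, minus strand). Vehicle mice read 13.3 CPM (10.3 to 14.6), 15.1 (12.3 to 19.01) and 16.1 (10.7 to 23.1), and chow-fed mice 10.8 (8.499 to 12.4). Of 7 vehicle mice at 24 weeks, 6 lay above all chow-fed mice (log2 fold change 0.63 ± 0.13, adjusted p = 2.51e-05), and the change from 8 weeks did not pass (log2 fold change 0.35 ± 0.12, adjusted p = 0.197). Semaglutide mice read 13.9 CPM (9.62 to 16.9), 13.7 (10.3 to 16.4) and 13.2 (8.79 to 14.8), and the difference at 24 weeks (log2 fold change -0.33 ± 0.12, adjusted p = 0.0368) was lost without vehicle replicate 1, 2 or 4 (-0.22, adjusted p = 0.177, without replicate 1) and without the 3 libraries of the other number series (-0.28, adjusted p = 0.0915). Reversal mice read 8.56 CPM (7.35 to 10.5), 8.11 (6.88 to 9.23) and 9.45 (8.59 to 11.3), lower than vehicle at all 3 times (-0.75 ± 0.12 at 24 weeks, adjusted p = 9.8e-07).

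Ifih1 (MDA5) and Ddx58 (RIG-I), the sensors that signal through MAVS, were called by edgeR after chow reversal and in no other comparison. Ifih1 (ENSMUSG00000026896, chr2:62595798-62646255, minus strand) read 27.4 CPM (20.4 to 34.2) in chow-fed mice, 33.02 (22.9 to 39.7), 29.9 (21.6 to 39.5) and 31.02 (17.8 to 41.98) in vehicle mice, 31.8 (21.9 to 33.4), 26.9 (18.3 to 36.9) and 25.5 (13.4 to 33.1) in semaglutide mice and 23.1 (21.7 to 27.9), 26.02 (21.7 to 32.04) and 32.6 (18.3 to 34.96) in reversal mice. Ddx58 (ENSMUSG00000040296, chr4:40203773-40239828, minus strand) read 22 CPM (15.3 to 30.7), 26.4 (21.01 to 32.03), 28.8 (16.8 to 31.9), 27.3 (16.7 to 35.1), 27.1 (22.9 to 29.3), 24.4 (15.3 to 31.97), 21.4 (14.6 to 27.01), 18.7 (16.6 to 22.1), 19.1 (17.9 to 22.3) and 22.1 (18.9 to 30.3) in the same order. By edgeR neither was called against chow in vehicle mice at 24 weeks (0.20 ± 0.15 and 0.32 ± 0.14, adjusted p = 0.305 and 0.0605) and neither was called between 8 and 24 weeks. DESeq2 called Ddx58 higher than chow (adjusted p = 0.0374). Chow reversal lowered Ifih1 at 8 weeks (log2 fold change -0.40 ± 0.15, adjusted p = 0.0318), a call lost without vehicle replicate 2, 4, 7 or 8 (adjusted p of 0.0521 to 0.0659), and lowered Ddx58 at 8 weeks (log2 fold change -0.48 ± 0.14, adjusted p = 0.00439) and 16 weeks (log2 fold change -0.40 ± 0.13, adjusted p = 0.0183).

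The interferon-inducible GTPases comprise 2 families. The guanylate-binding proteins, which coat pathogen vacuoles, were higher than in chow-fed mice, most of all Gbp2 (log2 fold change 2.13 ± 0.27, adjusted p = 6.94e-10) and Gbp3. For Gbp3 (ENSMUSG00000028268, chr3:142560026-142573209, plus strand) chow-fed mice read 2.87 CPM (2.24 to 7.38), the highest being replicate 5, and vehicle mice 9.596 (8.08 to 13.97), 11.6 (7.55 to 16.7) and 10.6 (9.101 to 19.5). No vehicle mouse at 24 weeks overlapped the chow range (log2 fold change 1.92 ± 0.21, adjusted p = 4.05e-12), and the change from 8 weeks did not pass (log2 fold change 0.28 ± 0.18, adjusted p = 0.528). Semaglutide mice read 11.2 CPM (8.36 to 12.3), 12 (7.83 to 13.9) and 10.4 (5.495 to 13.8), not different from vehicle by test at 24 weeks (log2 fold change -0.35 ± 0.19, adjusted p = 0.168). Reversal mice read 5.44 CPM (4.56 to 7.33), 5.04 (3.31 to 6.59) and 4.97 (3.497 to 7.14), below every vehicle mouse at all 3 times (-1.32 ± 0.20 at 24 weeks, adjusted p = 8.87e-08). Gbp3 and Gbp2 were higher with semaglutide than after reversal at 24 weeks (0.97 and 1.23, adjusted p = 0.000237 and 0.000309).

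The immunity-related GTPases, which include regulators of autophagy and effectors on vacuoles, had fewer calls. Igtp (ENSMUSG00000078853, chr11:58199556-58207591, plus strand) read 18.3 CPM (16.6 to 31.4) in chow-fed mice, 17.9 (12.9 to 40.99), 25.7 (17.1 to 46.2) and 22.9 (19.6 to 47.5) in vehicle mice, 30.99 (25.6 to 42.6), 30.2 (25.1 to 48.5) and 32.02 (18.6 to 43.5) in semaglutide mice and 27 (21.9 to 29.4), 21.3 (14.5 to 28.6) and 19.4 (18.7 to 34.8) in reversal mice. The joint test over the 3 vehicle groups gave Igtp an unadjusted p of 0.0495 (adjusted p = 0.637). Its difference from chow (log2 fold change 0.49 ± 0.21, adjusted p = 0.0473) was lost in 8 of the 14 fits that left out 1 chow-fed or vehicle mouse (adjusted p of 0.0612 to 0.23), and also when the 3 libraries of the other number series were left out of the fit (0.48, adjusted p = 0.0522). It shares 7974 bases of span with Irgm2 on the same strand, so the counts of both are uncertain. Irgm1 (ENSMUSG00000046879, chr11:48861968-48871683, minus strand) read 36.7 CPM (31.4 to 53.1), 40.9 (34.7 to 48.9), 41.6 (27.98 to 62.1), 37.97 (33.6 to 58.1), 45.7 (36.8 to 50.7), 40.9 (32.6 to 48.5), 40.2 (31.1 to 53.3), 36.7 (31.9 to 42.03), 35.6 (29.8 to 39.4) and 36.02 (32.4 to 56.98) in the same order, and passed once, lower after reversal at 16 weeks (log2 fold change -0.33 ± 0.12, adjusted p = 0.0365). Iigp1 was lower than chow in vehicle mice at 24 weeks (log2 fold change -0.43 ± 0.17, adjusted p = 0.0314) and higher after reversal (log2 fold change 0.42 ± 0.17, adjusted p = 0.0421), and both calls were lost under scaling to library totals. By edgeR 0 of 7 GTPases were called with semaglutide at any time, with 3 higher at 8 weeks at an unadjusted p under 0.05, and DESeq2 called Igtp higher at 8 weeks (adjusted p = 0.04535, against 0.0556 by edgeR). After reversal at 24 weeks 2 were lower and 1 higher.

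Of the other induced genes, Lgals3bp, a secreted galectin-binding glycoprotein, was higher in vehicle than in chow-fed mice (ENSMUSG00000033880, chr11:118392751-118402092, minus strand). Chow-fed mice read 53.7 CPM (47.3 to 70.7) and vehicle mice 111 (91.9 to 138), 132 (112 to 162) and 136 (114 to 174) at 8, 16 and 24 weeks. The vehicle and chow groups did not overlap (log2 fold change 1.31 ± 0.12, adjusted p = 4.39e-15), the smallest adjusted p of any member in that comparison. Semaglutide mice read 92.99 CPM (87.8 to 106), 94.6 (45.7 to 122) and 98.02 (63.6 to 108), and reversal mice 67.5 (59.95 to 69.7), 64.9 (52.5 to 74.8) and 66.7 (51.7 to 80.3). At 24 weeks all semaglutide mice lay below all vehicle mice (log2 fold change -0.59 ± 0.11, adjusted p = 6.47e-05), and semaglutide was above reversal (log2 fold change 0.50 ± 0.11, adjusted p = 0.000911). The change from 8 to 24 weeks of vehicle was 0.31 ± 0.11 (adjusted p = 0.211).

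Ifi27l2a, a small membrane protein of the ISG12 family, had the largest fold difference from chow of the 41 genes (ENSMUSG00000079017, chr12:103442167-103443680, minus strand). Chow-fed mice read 1.71 CPM (0.746 to 2.53) and vehicle mice 8.96 (6.53 to 15.8), 13.2 (8.24 to 21.1) and 14.3 (10.1 to 34.8). All vehicle mice lay above all chow-fed mice at 24 weeks (log2 fold change 3.32 ± 0.39, adjusted p = 5.46e-11, 9.98-fold). Semaglutide mice read 5.74 CPM (5.23 to 11.2), 8.32 (5.55 to 43.02) and 8.61 (5.61 to 26.98), spreading widely at 16 and 24 weeks, and 0 of 3 differences passed (log2 fold change -0.44 ± 0.33, adjusted p = 0.334 at 24 weeks). Reversal mice read 4.73 CPM (2.84 to 6.24), 3.53 (2.27 to 5.04) and 3.58 (1.87 to 9.31), below every vehicle mouse at each time (log2 fold change -1.74 ± 0.34, adjusted p = 2.67e-05 at 24 weeks). It stayed above chow after 24 weeks of reversal (log2 fold change 1.58 ± 0.39, adjusted p = 0.00521).

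Ifi44, a cytoplasmic protein of uncertain function, was the other gene above chow after reversal (ENSMUSG00000028037, chr3:151730922-151749960, minus strand). It read 0.637 CPM (0.569 to 1.83) in chow-fed mice and 3.74 (2.24 to 5.51), 4.79 (3.02 to 9.04) and 4.81 (2.94 to 7.95) in vehicle mice (log2 fold change 2.63 ± 0.26, adjusted p = 1.21e-13 against chow). Semaglutide mice read 4.03 CPM (3.15 to 4.62), 4.03 (2.61 to 6.01) and 3.41 (1.95 to 6.03), and the 24-week difference (log2 fold change -0.59 ± 0.22, adjusted p = 0.04303) was lost without vehicle replicate 1, 4, 5 or 7 (-0.47, adjusted p = 0.133, without replicate 1). Reversal mice read 1.91 CPM (1.34 to 3.29), 1.71 (1.22 to 2.81) and 1.92 (1.17 to 2.71), lower than vehicle at each time (log2 fold change -1.48 ± 0.23, adjusted p = 2.84e-07 at 24 weeks) and higher than chow at 24 weeks (log2 fold change 1.15 ± 0.26, adjusted p = 0.00278).

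Rtp4 encodes a chaperone of membrane receptors (ENSMUSG00000033355, chr16:23520291-23614222, plus strand). Chow-fed mice read 8.17 CPM (5.44 to 11.8), vehicle mice 13.6 (9.74 to 18.4), 15.6 (13.2 to 19.9) and 16.4 (12.96 to 25.5), semaglutide mice 14.1 (12.3 to 17.8), 14.1 (9.74 to 20.9) and 15.5 (12.6 to 16.7) and reversal mice 9.71 (8.59 to 12.2), 9.51 (7.88 to 12.5) and 9.897 (8.77 to 11.3). The vehicle mice did not overlap the chow-fed mice at 24 weeks (log2 fold change 1.05 ± 0.15, adjusted p = 6.95e-09), the semaglutide difference did not pass (log2 fold change -0.24 ± 0.14, adjusted p = 0.197), and the semaglutide mice all lay above the reversal mice (log2 fold change 0.58 ± 0.14, adjusted p = 0.00184). Trim30a, a regulator of inflammasome and NF-kB signalling, and Parp14, an ADP-ribosyltransferase, were higher than chow (1.76 and 0.999) and lower with both treatments at 24 weeks, while Ifi35 was called only in semaglutide against chow (log2 fold change 0.50 ± 0.18, adjusted p = 0.0261).

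**Figure D3:**
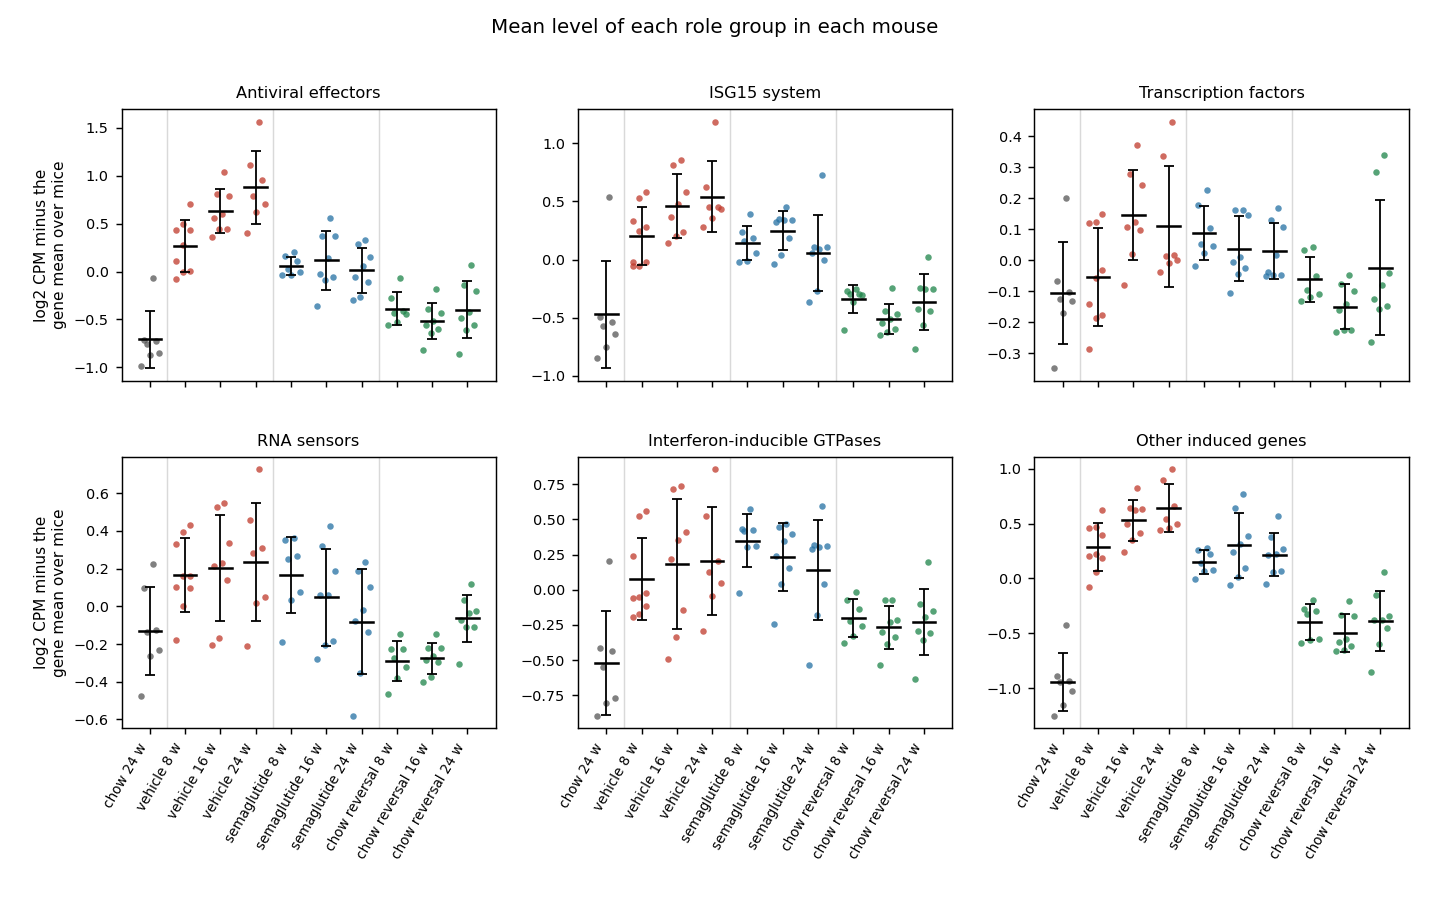
Mean log2 CPM of the genes of each of the 6 roles, each gene centred on its own average over all mice, with 1 point per mouse and the mean ± SD of each of the 10 groups. In the antiviral effectors the vehicle means are 0.263, 0.631 and 0.8797 at 8, 16 and 24 weeks, whereas in the transcription factors they are -0.0546, 0.145 and 0.1095.

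Over all 41 genes the mean centred level was -0.599 ± 0.279 (SD, n = 7) in chow-fed mice. It was 0.193 ± 0.23 (n = 9), 0.446 ± 0.229 (n = 8) and 0.577 ± 0.290 (n = 7) in vehicle mice at 8, 16 and 24 weeks. Semaglutide mice read 0.141 ± 0.0775 (n = 7), 0.164 ± 0.164 (n = 8) and 0.0677 ± 0.2 (n = 8), and reversal mice -0.315 ± 0.105 (n = 7), -0.417 ± 0.113 (n = 8) and -0.305 ± 0.204 (n = 8). On this scale semaglutide mice held near the level of vehicle mice at 8 weeks and reversal mice lay between that level and chow. The vehicle mice at 24 weeks ranged from 0.319 to 1.09. Chow replicate 5 read 0.0113, and its 6 companions lay lower.

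The interferon pathway beyond the members was followed in 78 other genes, of which 70 could be tested. Among the ligands, Ifna4, Ifna2, Ifnl2 and Ifnl3 had 0 counts in all 77 libraries, Ifnb1 had 4 counts in 4 libraries, and Ifng, the type II interferon, had 70 counts in 33 libraries. At these depths a change in the interferon transcripts listed here was not detectable, and other interferon genes were not among those followed. Il12b, also listed as a ligand, had 177 counts in 55 libraries and was not tested. Il18, a cytokine that promotes interferon gamma release, was the 1 ligand tested. It read 10.9 CPM (9.695 to 13.9) in chow-fed mice and 7.36 (5.09 to 8.803) in vehicle mice at 24 weeks (log2 fold change -0.67 ± 0.18, adjusted p = 0.00123), and was higher with semaglutide at 16 weeks (log2 fold change 0.81 ± 0.17, adjusted p = 0.000731) and 24 weeks (log2 fold change 0.70 ± 0.17, adjusted p = 0.00175), the opposite direction to the effectors. The libraries of the other number series were the highest of their groups, at 18.1 and 16.1 CPM at 16 weeks and 24.8 CPM at 24 weeks, and without them the differences were 0.64 (adjusted p = 0.00819) and 0.48 (adjusted p = 0.0131).

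Of the 9 receptors and kinases, 5 were higher than chow in vehicle mice at 24 weeks and 0 lower, and 0 changed between 8 and 24 weeks by edgeR or DESeq2, with 3 higher at an unadjusted p under 0.05. Ifngr1, a chain of the interferon gamma receptor, read 14.6 CPM (12.7 to 17.8) in chow-fed mice, 33.1 (29.1 to 36.5) in vehicle mice, 23.9 (20.9 to 27.8) in semaglutide mice and 16.9 (14.4 to 33.6) in reversal mice at 24 weeks. It separated vehicle from chow (log2 fold change 1.15 ± 0.12, adjusted p = 4.43e-13) and was lower with semaglutide (log2 fold change -0.46 ± 0.11, adjusted p = 0.00173) and reversal (log2 fold change -0.75 ± 0.11, adjusted p = 1.31e-07). Of the 8 signalling factors and inhibitors 2 were higher and 1 lower than chow, and of the 13 sensors and adaptors 10 were higher and 1 lower. Over all genes 25.8% were higher than chow and 22.0% lower, and the counts of the signalling factors and inhibitors did not exceed these shares. Trex1, the exonuclease that removes cytosolic DNA, was 1.000 ± 0.20 above chow (adjusted p = 2.1e-05). Irf5, a factor of macrophage activation, did not differ from chow by test (log2 fold change 0.15 ± 0.16, adjusted p = 0.4702) but was lower with semaglutide at 24 weeks (log2 fold change -0.69 ± 0.16, adjusted p = 0.000925).

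Among 39 further induced genes tested, 27 were higher than chow and 1 lower (25.8% and 22.0% of all genes). Between 8 and 24 weeks of vehicle 2 rose (0.731% of all genes). Ly6a, or Sca-1, read 13.3 CPM (9.74 to 29.8) at 8 weeks and 31 (17.8 to 71.8) at 24 weeks (log2 fold change 1.24 ± 0.22, adjusted p = 0.000112). Cxcl10, a chemokine that attracts T cells, read 5.48 CPM (2.596 to 10.9) and 8.82 (5.98 to 22.6) (log2 fold change 1.02 ± 0.25, adjusted p = 0.0163). Both were lower at 24 weeks with semaglutide (-1.36 ± 0.23 and -1.26 ± 0.26, adjusted p = 7.34e-06 and 0.000179), and in reversal mice both lay below every vehicle mouse (-2.14 ± 0.23 and -1.99 ± 0.27, adjusted p = 1.57e-11 and 6.85e-09). Over the 70 genes, 44 were higher and 4 lower than chow in vehicle mice at 24 weeks, 27 were lower and 6 higher with semaglutide at 24 weeks, and 37 were lower and 2 higher after reversal, set against the shares of all genes given above for the same comparisons.

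**Figure D4:**
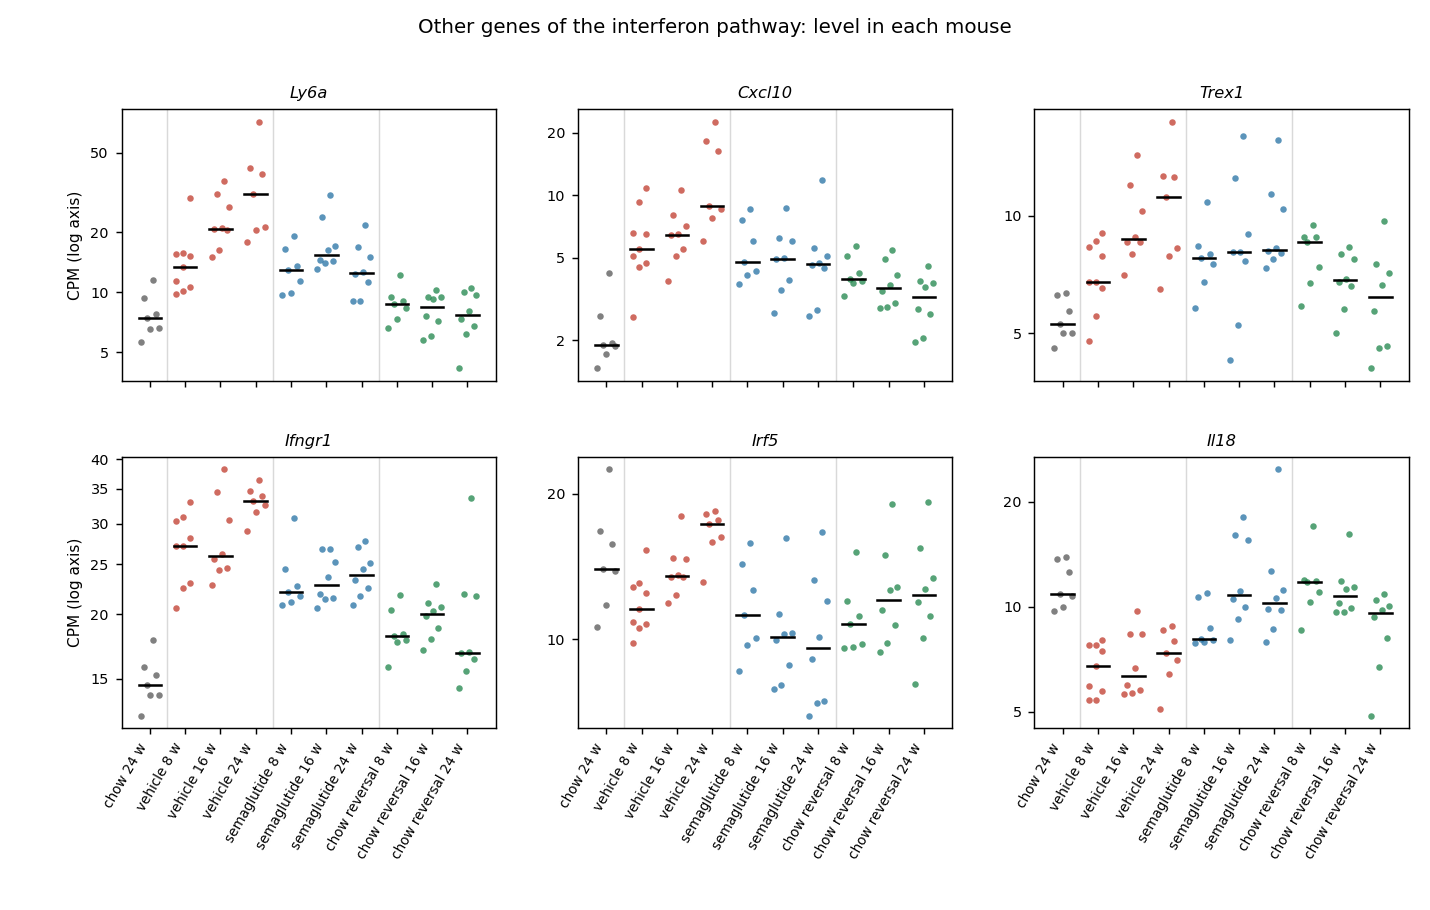
Level of Ly6a, Cxcl10, Trex1, Ifngr1, Irf5 and Il18 in CPM on a log axis, with 1 point per mouse and a bar at the median of each of the 10 groups. Ly6a and Cxcl10 are higher at 24 than at 8 weeks of vehicle (1.24 and 1.02 on the log2 scale between 8 and 24 weeks), and Il18 is lower in vehicle than in chow-fed mice at 24 weeks.

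Markers of the cell types that could carry these genes moved with diet and treatment, and their part in the results was not tested. Between 24 and 8 weeks of vehicle 0 of 50 markers tested were called by edgeR or DESeq2, with 4 higher and 3 lower at an unadjusted p under 0.05. Against chow, 30 were higher and 7 lower (25.8% and 22.0% of all genes). At 24 weeks 13.6% of all genes were lower with semaglutide and 19.1% after reversal, and the marker counts below stand beside these shares. All 7 markers of monocyte-derived and lipid-associated macrophages were higher, and their summed level had a median of 59.1 CPM (52.4 to 78.3) in chow-fed mice, 373 (242 to 563) in vehicle mice at 8 weeks and 416 (241 to 563) at 24 weeks. At 24 weeks it ran from 104 to 264 (median 145) with semaglutide and from 62.4 to 599.6 (median 92.0) after reversal, where 6 of the 7 markers were lower than vehicle in either case. No marker of this list was at 0 in all mice of a group. The 6 Kupffer cell markers summed to 88.8 to 277 CPM in chow-fed mice (median 120.2), 303 to 741 at 8 weeks (median 482), 438 to 678 at 16 weeks (median 582) and 521 to 952 (median 661) at 24 weeks of vehicle. At 24 weeks they summed to 372 to 912 with semaglutide (median 460.3) and 69.2 to 440.0 after reversal (median 141). Cd5l held most of the sum in vehicle mice, with a median of 309 CPM at 8 weeks and 402 at 24 weeks, and the other 5 markers summed to medians of 182 and 267. At 24 weeks the medians of Cd5l and of the other 5 were 230.0 and 241.5 with semaglutide and 54.1 and 86.8 after reversal. By edgeR 1 of the 6 markers was called lower and 1 higher with semaglutide at 24 weeks. The log2 fold changes ran from -0.65 to 3.73, with 4 below 0 and 2 above. The top value of 3.73 was the highest of all 50 markers tested in that comparison. After reversal 4 of the 6 were called lower and 0 higher. Against chow 4 of the 6 were called higher, whereas Marco had a log2 fold change of -1.76 against chow and -1.13 between 24 and 8 weeks (adjusted p = 0.143 and 0.626).

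Markers of plasmacytoid dendritic cells, the main producers of type I interferon, summed to 9.21 to 13.8 CPM in chow-fed mice (median 10.51), 14.4 to 20.0 in vehicle mice at 8 weeks (median 17.2) and 15.8 to 26.5 at 24 weeks (median 18), with Bst2 left out as a member. All 4 of those tested, Bst2 among them, were higher than chow and lower after 24 weeks of reversal (25.8% and 19.1% of all genes). By edgeR 0 of 4 were called with semaglutide. DESeq2 called Runx2 lower at 16 and 24 weeks of semaglutide (adjusted p = 0.0299 and 0.0303, against 0.0621 and 0.0602 by edgeR). T and NK cell markers summed to 1.29 to 3.35 CPM in chow-fed mice (median 2.76) and 4.96 to 13.5 in vehicle mice at 24 weeks (median 9.27). Of the 7 tested, 5 were higher than chow (25.8% of all genes). The 7 hepatocyte markers went the other way, all lower than chow in vehicle mice at 24 weeks (22.0% of all genes). All 7 were higher with semaglutide and with reversal at 24 weeks, set against the shares of all genes given above.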

How the data were processed

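Total RNA from 77 mouse livers was sequenced, 1 library per mouse (NEBNext Ultra II Directional libraries, sequenced on a NextSeq). Per the labels and the study's methods, the authors aligned reads to GRCm38 with STAR 2.7.3a, estimated counts per gene with Salmon 1.2.0 and checked quality with FastQC 0.11.9 and Picard. The annotation release and the strand setting are not given in the sources used here. The deposited values are estimated counts per gene, not normalised, of which 7.55% were not whole. Totals ran from 8883150 to 37631072 per library, and rows without a gene symbol held 0.0155% of counts. Symbols and coordinates came from GENCODE M21 (55227 of 55487 identifiers matched). Because counts came from 1 library per mouse, p-values rest on the spread between mice. In the main fit that spread was pooled for each gene over all 10 groups. It can therefore differ from the spread of the mice being compared. When each fit was limited to the groups it compared, 34 of the 196 calls of members were lost.

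Counts were rounded to whole numbers and filtered by edgeR's filterByExpr, and 14904 genes were fitted over all 10 groups with edgeR 4.0.16 in R 4.3.3 (TMM scaling, quasi-likelihood F test, Benjamini-Hochberg adjustment over all genes tested, threshold 0.05). Levels are CPM with TMM-scaled library sizes. Centred log2 levels use a prior count of 2, and fold changes are the estimates of the edgeR fit. Scripts were tested on simulated data with known changes. The members and lists were chosen with earlier results of these data known. Members described in full were, per role, up to 3 ranked first by p in the joint test over the vehicle groups, and the 4 with the smallest p in semaglutide or chow reversal against vehicle at 24 weeks and in vehicle against chow. Other pathway genes were named by a like rule, and members described outside it were chosen after their values were seen. Alternatives were DESeq2 1.42.0, size factors of the RLE type, library totals, no filter, a block on library number, only the compared groups, and fits without the libraries that stood apart. Fits without single vehicle or chow mice were added after seeing the data. Promoter sequence came from RefSeq.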

Additional observations from a re-analysis of the deposited data

Results flagged for a closer look

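For the 22 genes described in full and for the mean over all members, 230 sets of mice were examined for a mouse set apart from the rest of its group by a Dixon test at the 95% level. It found 16 of the 230, not far from the 1 in 20 that chance gives. The sets share mice, so they are not independent, and single values below may be chance. Replicate 5 of the chow-fed mice was the high value for Usp18 (20.2 CPM), Gbp3 (7.38 CPM), Igtp (31.4 CPM), Irgm1 (53.1 CPM) and the mean centred log2 level of all members (0.0113), and replicate 6 of that group was low for Cmpk2 (1.97 CPM). Other high values were Rsad2 in chow reversal 8-week replicate 2 (11.9 CPM), Stat2 in semaglutide 16-week replicate 2 (55 CPM), and Ifi27l2a in vehicle 24-week replicate 3 (34.8 CPM) and semaglutide 8-week replicate 3 (11.2 CPM). Low values were Ifit2 in vehicle 8-week replicate 9 (3.17 CPM), Mx1 in semaglutide 24-week replicate 2 (0.262 CPM), Isg15 in chow reversal 8-week replicate 5 (3.45 CPM), Ifih1 in semaglutide 8-week replicate 3 (21.9 CPM) and chow reversal 24-week replicate 2 (18.3 CPM), and Lgals3bp in semaglutide 16-week replicate 7 (45.7 CPM).

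Effects that differed between 24 and 8 weeks by the test of the difference itself were those of semaglutide on Rsad2 (log2 difference -2.08) and Oasl1 (-1.59), and those of chow reversal on Rsad2 (-1.7) and Oasl1 (-1.59).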

How the results depend on the processing

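No pairing of mice was made, since each mouse carries its own number, and the block used sets of 10 consecutive library numbers, over which the groups repeat. Of 196 calls of members over the 17 comparisons, 0 changed direction under any of 8 other settings. Calls lost were 0 with DESeq2, 2 with RLE size factors, 6 with library totals, 18 with no filter, 6 each without the 3 libraries of the other number series and without vehicle 8-week replicate 7, whose library number was irregular, 10 with the block (Ifit3 and Cmpk2 between vehicle 24 and 8 weeks, Irf1, Oas2, Ifit2 and Dhx58 with semaglutide, Mx2 after reversal, Ifit2 between the treatments, Ifi35 for semaglutide against chow and Oasl1 for the change of the semaglutide effect) and 34 when the fit held only the groups compared. Library totals moved the median of all genes by 0.422 for vehicle against chow and by -0.132, -0.176 and -0.231 for semaglutide and -0.275, -0.251 and -0.302 for chow reversal at 8, 16 and 24 weeks. The cause of the following moves was not tested. For vehicle 24 against 8 weeks the count was 3 without that replicate 7 and 2 with only the compared groups, against 6. DESeq2 called 2 between vehicle 24 and 16 weeks. For semaglutide at 8 weeks the count was 3 without the other number series, 0 without that replicate 7, 0 with the block, 11 with only the compared groups and 2 with DESeq2, against 1. For semaglutide at 16 weeks it was 16 with library totals, 5 without the other number series and 4 with only the compared groups, against 8. For semaglutide against reversal it was 9 with only the compared groups, against 17. For reversal against chow it was 10 with library totals, 1 with only the compared groups and 6 with DESeq2, against 2. The change of the semaglutide effect gave 1 with the block and 1 with only the compared groups, and that of the reversal effect 0 with only the compared groups, against 2 each. Leaving out single chow-fed mice gave 2 to 10 members for reversal against chow, 21 to 27 for semaglutide against chow and 30 to 32 for vehicle against chow. Leaving out single vehicle 24-week mice gave 30 to 32 against chow, 2 to 8 against 8 weeks, 15 to 20 for semaglutide, 29 to 30 for reversal, 1 to 2 for the change of the semaglutide effect and 0 to 3 for that of reversal. Leaving out single vehicle 8-week mice gave 3 to 7, 0 to 3 for semaglutide, 21 to 25 for reversal and 2 to 2 for either change of effect.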

Other observations

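Within the vehicle mice at 24 weeks the members did not share 1 order of mice. Replicate 3 was the lowest of the 7 for 16 of the 41 genes, yet it read 35.3 CPM for Rsad2 and 69.1 CPM for Oasl1, second in both only to replicate 1 (67.3 and 88.4 CPM).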
